A study of Mus musculus with 9 samples.

Results

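The collagen chains are the polypeptides that trimerise into the collagens of the extracellular matrix, and 38 of their genes were chosen by symbol and measured among 24291 genes on arrays of sorted cells from fetal mouse lung. They comprised 11 fibrillar chains, 6 basement membrane chains (type IV), 4 beaded filament chains (type VI) and 17 others. All 38 were measured, 26 of them by more than 1 probe, for 97 probes in all. The cells came from E18.5 lungs of litters whose mothers were given tamoxifen at E15.5 (0.1 mg for each g of weight), and in every group only cells positive for the red fluorescent protein RFP were taken. The promoter that drives RFP, the strain and the alleles are not given in the sources used here. The SMC group was sorted as high for Acta2, the smooth muscle actin, and low for PDGFRA, a receptor for platelet-derived growth factor, and is labelled as airway and vascular smooth muscle. Cells of the MYF group were low for Acta2 and high for PDGFRA and is labelled as precursors of alveolar myofibroblasts. The INM group was low for both and is labelled as undifferentiated precursors of either fate. Each group had 3 one-colour arrays of amplified RNA, and the design gives 3 mice per group.

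Collagen chains wind around one another into a helical molecule, and the chains a cell makes decide which collagen it can assemble. Fibrillar collagens build the load-bearing cables of tissue, type IV collagen forms the sheet-like network of basement membranes, and type VI collagen forms beaded microfilaments that lie between cells and fibrils. In the developing lung mesenchymal cells lay down the fibrils and microfilaments around airways, vessels and future air sacs, while the alveolar basement membrane receives chains from several cell types.

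Signals are log2 values, and each gene is given by its brightest probe, so levels are compared between groups and not between genes. SMC replicate 1 stood apart. Its correlation with the other 8 arrays was 0.425 to 0.451 over all features, against 0.864 to 0.970 for the 28 pairs among those arrays. It lay below both other SMC arrays for 22 collagen genes and above both for 9. The fit therefore used 8 arrays (2 SMC, 3 MYF and 3 INM), and values with all 9 arrays are given beside it. Pdgfra, on which the cells were sorted, was at 13.63, 13.04 and 13.87 in MYF, 8.66, 8.46 and 8.30 in INM and 6.93 and 6.89 in SMC replicates 2 and 3, with 1.98 on SMC replicate 1. Acta2 was 15.88 and 14.79 in those SMC arrays, 13.87 to 14.06 in MYF and 13.43 to 13.84 in INM, with 14.77 on SMC replicate 1. Markers of some other cell types moved with the groups. The summed signal of 16 epithelial markers was 12.3 to 13.7 in MYF, 17.5 to 17.8 in INM and 16.2 to 17.2 in the 2 SMC arrays on the log2 scale. That of 14 endothelial markers was 9.54 to 9.74, 13.8 to 13.9 and 13.1 to 13.6 in the same order. That of 16 cardiac muscle markers was 10.8 to 11.7, 14.0 to 14.7 and 16.5 to 18.2. All 16 epithelial and 13 of 14 endothelial markers were lower in MYF than in INM by the test used here, and 15 of 16 and 13 of 14 were higher in SMC than in MYF. In MYF the dimmest of these markers were Foxj1 (2.86 to 3.44) and Flt1 (2.39 to 4.41), whereas Sftpc was still at 10.37 to 13.27. The part of this RNA in any difference below was not tested, and fewer cells of a type and less RNA per cell cannot be told apart.

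**Figure D1:**
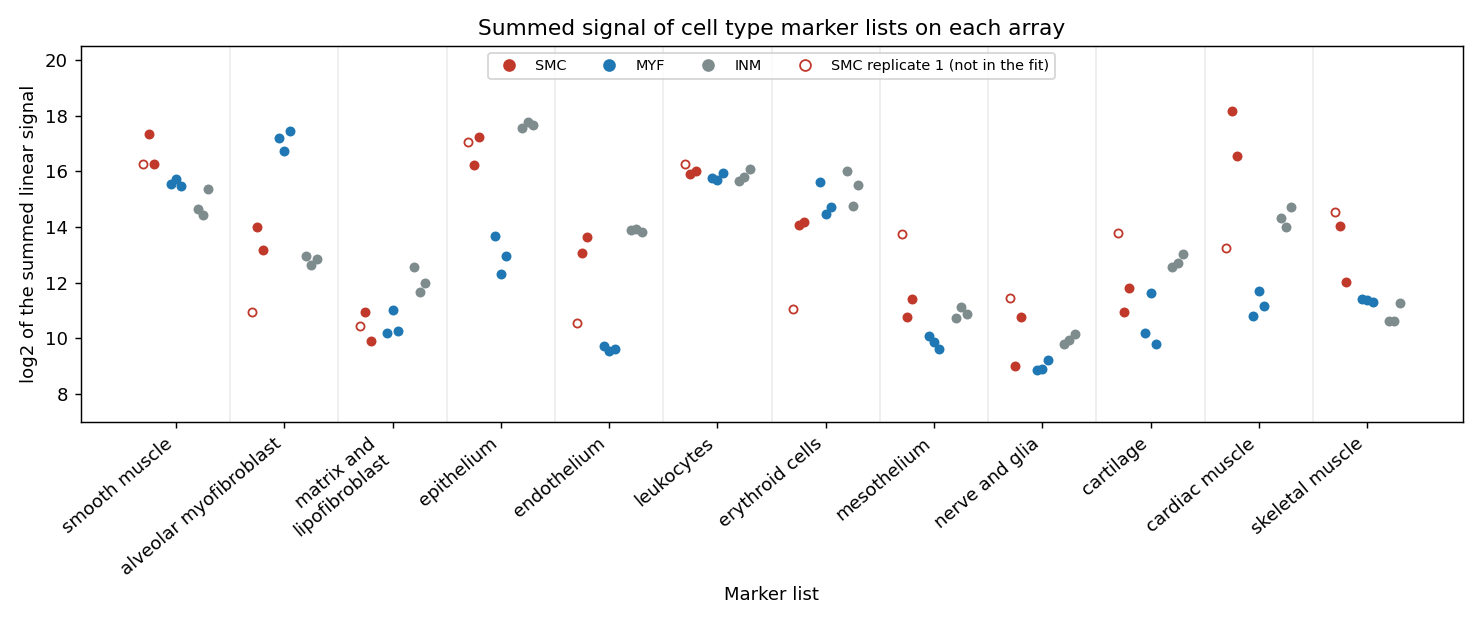
Summed signal of 12 cell type marker lists on each array, as log2 of the summed linear signal (vertical axis), with 1 point per array coloured by group and SMC replicate 1 drawn hollow. Epithelial and endothelial lists are lowest in the 3 MYF arrays (12.3 to 13.7 and 9.54 to 9.74), the cardiac list is highest in SMC replicates 2 and 3 (16.5 to 18.2), and the alveolar myofibroblast list is highest in MYF (16.7 to 17.5). That last list holds Pdgfra, on which the cells were sorted, and was chosen with earlier results of these data known. Its height in MYF is therefore no independent result.

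More collagen genes were higher than lower in the PDGFRA-high MYF cells when these were compared with either other group. Between MYF and INM, 11 of 38 members (28.9%) were higher in MYF, where 4.35% of all genes tested were, and 4 of 38 (10.5%) were lower, where 6.36% of all genes were. The test was limma's moderated test with Benjamini-Hochberg adjustment over all genes at 0.05, and in either direction it called 10.7% of genes. Between SMC and MYF, 11 of 38 were lower in SMC and 0 were higher, where 3.54% and 4.66% of all genes were, 8.21% in either direction. Between SMC and INM 0 of 38 passed, where 0.247% of all genes did, or 0% with all 9 arrays. An unadjusted p under 0.05 was reached by 6 of 38 members, and by 3071 of the 24260 genes tested. The median member differed by 0.83 between MYF and INM and by -1.10 between SMC and MYF, against 0.05 and -0.05 over all genes. Both MYF comparisons share the MYF arrays, and 9 members were called in both, each higher in MYF. Col5a1 and Col6a4 were also called in both comparisons in all 19 alternative settings. Counts of settings here and below are not counts of independent checks. Some settings repeat the same fit, and those without SMC replicate 2 or 3 leave 1 SMC array. With all 9 arrays, Col5a1 and Col6a4 were the 2 members called in each of the MYF comparisons, where 1.1% and 0.672% of all genes were called. MYF minus INM differences are the same in both fits, since SMC replicate 1 is in neither group, but their SE changed. Collagen genes were brighter than most, 29 of 38 being at or above the median signal of all genes (5.97). Among genes at or above it, 7.05% were called higher and 8.66% lower in MYF than in INM, and 6.6% higher and 5.59% lower in SMC than in MYF. For 16 members all 3 MYF arrays lay above the 5 others, which held for 12.4% of all genes, and for 1, Col4a3, all lay below, which held for 9.67%.

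**Figure D2:**
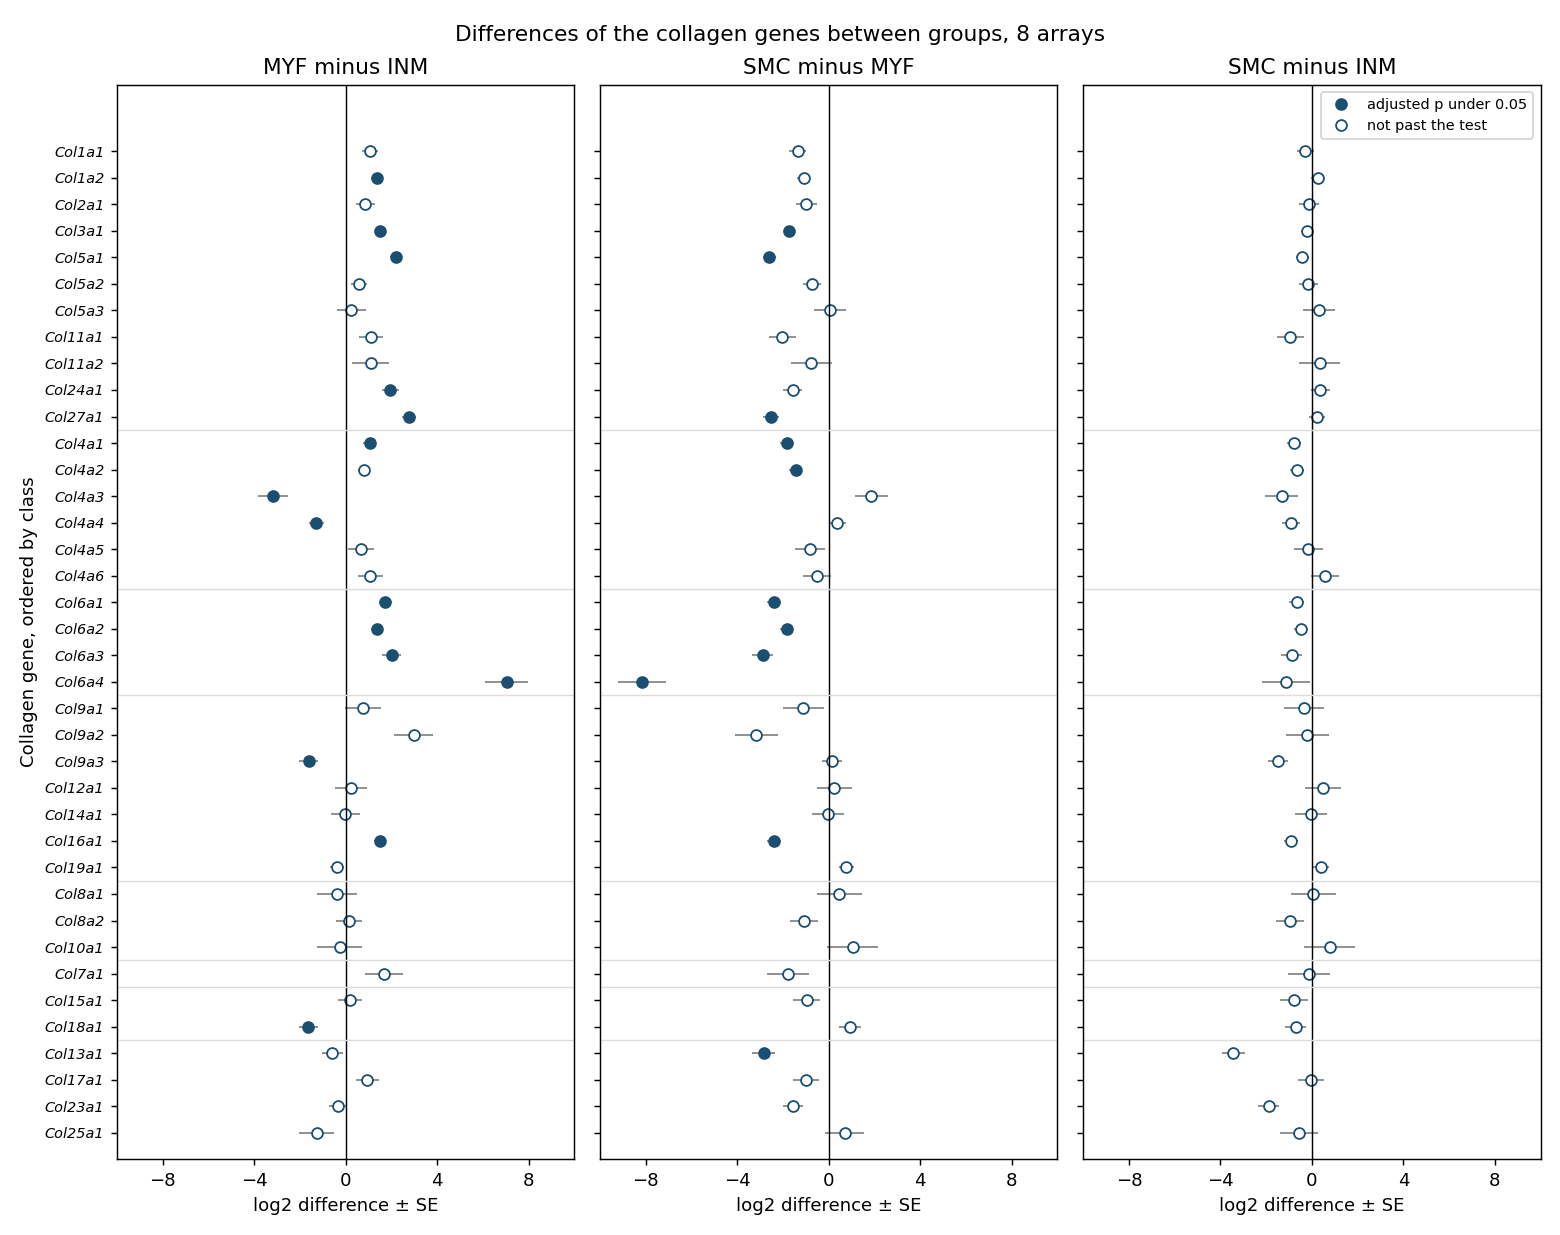
Log2 difference with its standard error (horizontal axis) for the 38 collagen genes in order of class (vertical axis), in 3 comparisons over 8 arrays, with filled points for adjusted p under 0.05. Filled points lie to the right in MYF minus INM for 11 genes and to the left in SMC minus MYF for 11, Col6a4 lies farthest out in both, and SMC minus INM has no filled point.

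The beaded filament chains were higher in MYF than in both other groups in all 4 cases. Of all genes 4.35% were called higher in MYF than in INM and 3.54% lower in SMC than in MYF. Col6a1 and Col6a2 encode the short chains of the type VI collagen molecule and Col6a3 the long one that completes it. Col6a4 encodes a further long chain that can take the place of the third in the mouse, and whose human counterpart is broken and makes no protein. Col6a4 was at 12.36, 11.68 and 12.53 in MYF, 6.45, 2.82 and 6.18 in INM, and 4.86 and 3.21 in SMC, with 4.16 on SMC replicate 1. The 3 MYF arrays were bright and the other arrays lay near or below the level of the median gene, with no overlap. Its log2 difference was 7.04 ± 0.94 (SE) in MYF minus INM (adjusted p = 0.00337) and -8.16 ± 1.05 in SMC minus MYF (adjusted p = 0.00487). With all 9 arrays the adjusted p was 0.0173 and 0.0188. A second, dimmer Col6a4 probe was at 8.50, 8.53 and 8.62 in MYF, 3.02, 2.59 and 2.51 in INM and 2.94 and 3.46 in SMC, with 2.81 on SMC replicate 1. It gave 5.84 ± 0.29 and -5.35 ± 0.33 in the same comparisons (adjusted p = 0.000378 and 0.00132, over all probes). Both probes separate MYF from the rest, but the size depends on the probe, and the table gives no detection call for the dim signals of INM and SMC.

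The Col6a3 signal was 13.15, 13.00 and 13.27 in MYF, 11.21, 11.37 and 10.78 in INM and 11.01 and 9.48 in SMC, with 2.36 on SMC replicate 1. Col6a1 was at 13.93, 13.68 and 13.81 in MYF, 12.42, 11.73 and 12.08 in INM and 11.58 and 11.23 in SMC, with 2.39 on that replicate. Col6a2 was at 15.67, 15.69 and 15.52, 14.40, 14.40 and 13.96, and 13.91 and 13.65 in the same order, with 8.27 on that replicate. For each of these chains MYF was above both other groups without overlap. INM lay above both SMC arrays for Col6a1 and Col6a2 and overlapped them for Col6a3, and SMC minus INM did not pass for any of them. In MYF minus INM the differences were 2.02 ± 0.41 for Col6a3 (adjusted p = 0.0201), 1.73 ± 0.28 for Col6a1 (adjusted p = 0.00821) and 1.37 ± 0.26 for Col6a2 (adjusted p = 0.0152). In SMC minus MYF they were -2.90 ± 0.46, -2.41 ± 0.32 and -1.85 ± 0.29 (adjusted p = 0.0103, 0.0054 and 0.01). The differences of Col6a1, Col6a2 and Col6a3 were called in neither comparison with all 9 arrays. Over the alternative settings the calls of Col6a1, Col6a2 and Col6a3 were kept in 18, 14 and 13 of 19 in MYF minus INM and in 18, 17 and 17 of 19 in SMC minus MYF. Dimmer probes of Col6a2 and Col6a3 had the same direction in both comparisons, the smallest differences being 1.10 and -0.67 on another Col6a3 probe. Col6a5 and Col6a6, which encode other long chains, were not called in any comparison, and their signals were 4.84 to 7.31 and 2.98 to 5.61 in MYF.

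The fibrillar chains were higher in MYF than in INM in 5 of 11 cases and lower in SMC than in MYF in 3. Over all genes these directions were called for 4.35% and 3.54%. All 11 differences between MYF and INM were positive, with a median of 1.10, where 12919 of the 24258 genes tested had a positive one. The genes that passed in both comparisons were Col3a1, whose collagen III fibrils are abundant in distensible organs, Col5a1, whose collagen V helps fibrils form and sets their width, and Col27a1, a fibrillar chain of developing cartilage and other tissues. Col5a1 was at 12.46, 12.64 and 12.58 in MYF, 10.51, 10.50 and 10.11 in INM and 10.07 and 9.84 in SMC, with 9.98 on SMC replicate 1. On this gene SMC replicate 1 lay with the other SMC arrays, and MYF stood above all of them. The difference was 2.19 ± 0.26 in MYF minus INM, 4.56-fold (adjusted p = 0.00196), and -2.60 ± 0.29 in SMC minus MYF, 6.08-fold lower in SMC (adjusted p = 0.00294). With all 9 arrays the adjusted p was 0.0451 and 0.0342.

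Col27a1 was at 11.90, 12.52 and 11.94 in MYF, 9.43, 9.31 and 9.33 in INM and 9.21 and 9.95 in SMC, with 6.64 on SMC replicate 1. Its 3 MYF arrays were clear of the rest, and INM and SMC overlapped. The difference was 2.76 ± 0.31 in MYF minus INM (6.79-fold, adjusted p = 0.00172) and -2.54 ± 0.35 in SMC minus MYF (5.82-fold lower in SMC, adjusted p = 0.00605). Col3a1 was at 14.90, 15.03 and 15.14 in MYF, 13.63, 13.42 and 13.45 in INM and 13.25 and 13.33 in SMC, with 3.50 on SMC replicate 1. MYF was uniformly higher, by 1.52 ± 0.24 against INM (adjusted p = 0.00705), and SMC minus MYF was -1.73 ± 0.27 (adjusted p = 0.00945). The calls of Col27a1 and Col3a1 were lost with all 9 arrays. Over the alternative settings Col27a1 was kept in 18 of 19 in both comparisons, and Col3a1 in 17 of 19 in MYF minus INM and 15 of 19 in SMC minus MYF.

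Col1a2 and Col24a1, by their brightest probes, passed in MYF against INM and missed the threshold in SMC against MYF. Col1a2 encodes the second chain of collagen I, the main protein of most fibrils, and was at 14.99, 15.41 and 14.98 in MYF, 13.91, 13.80 and 13.61 in INM and 13.83 and 14.23 in SMC, with 4.95 on SMC replicate 1. The MYF arrays were above the others, and the difference was 1.36 ± 0.27 in MYF minus INM (adjusted p = 0.0183) and -1.10 ± 0.30 in SMC minus MYF (adjusted p = 0.0646). Col24a1, another fibrillar chain, was at 9.01, 8.82 and 8.96 in MYF, 7.12, 6.50 and 7.29 in INM and 6.77 and 7.91 in SMC, with 11.31 on SMC replicate 1. Here SMC replicate 1 was the highest of all arrays. MYF minus INM was 1.95 ± 0.37 (adjusted p = 0.0152) and SMC minus MYF -1.59 ± 0.41 (adjusted p = 0.0559). A second, dimmer Col24a1 probe gave 4.02 ± 0.52 and -3.57 ± 0.58 and passed in both comparisons (adjusted p = 0.00343 and 0.0127, over all probes). In MYF minus INM the call of Col1a2 was kept in 11 of 19 alternative settings and that of Col24a1 in 14 of 19.

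Col1a1, the partner of Col1a2 in collagen I, was at 15.01, 15.98 and 15.61 in MYF, 14.54, 14.62 and 14.25 in INM and 13.89 and 14.48 in SMC, with 12.15 on SMC replicate 1. MYF lay above both groups, yet the signals came close to the top of the scale, 16. The difference was 1.06 ± 0.34 in MYF minus INM (adjusted p = 0.0884) and -1.35 ± 0.38 in SMC minus MYF (adjusted p = 0.0665). Another Col1a1 probe was brighter on all 8 arrays of the fit but at 3.12 on SMC replicate 1, which lowered its mean. It gave smaller differences, 0.63 ± 0.30 and -0.67 ± 0.34, and did not pass (limma adjusted p = 0.258 and 0.263, over all probes). On 20 repeated features of one Col1a1 transcript MYF minus INM was 1.05 to 1.39 with a median of 1.26, and 4 of the 20 passed when each feature was tested. SMC minus MYF on them was -1.59 to -1.25, and 3 of the 20 passed. These features share RNA and sequence and are not replicates of the cells. The remaining fibrillar chains (Col2a1, Col5a2, Col5a3, Col11a1 and Col11a2) differed by 0.25 to 1.10 between MYF and INM, and none of them passed. The chains of cartilage collagens II and XI were brightest on MYF replicate 2.

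**Figure D3:**
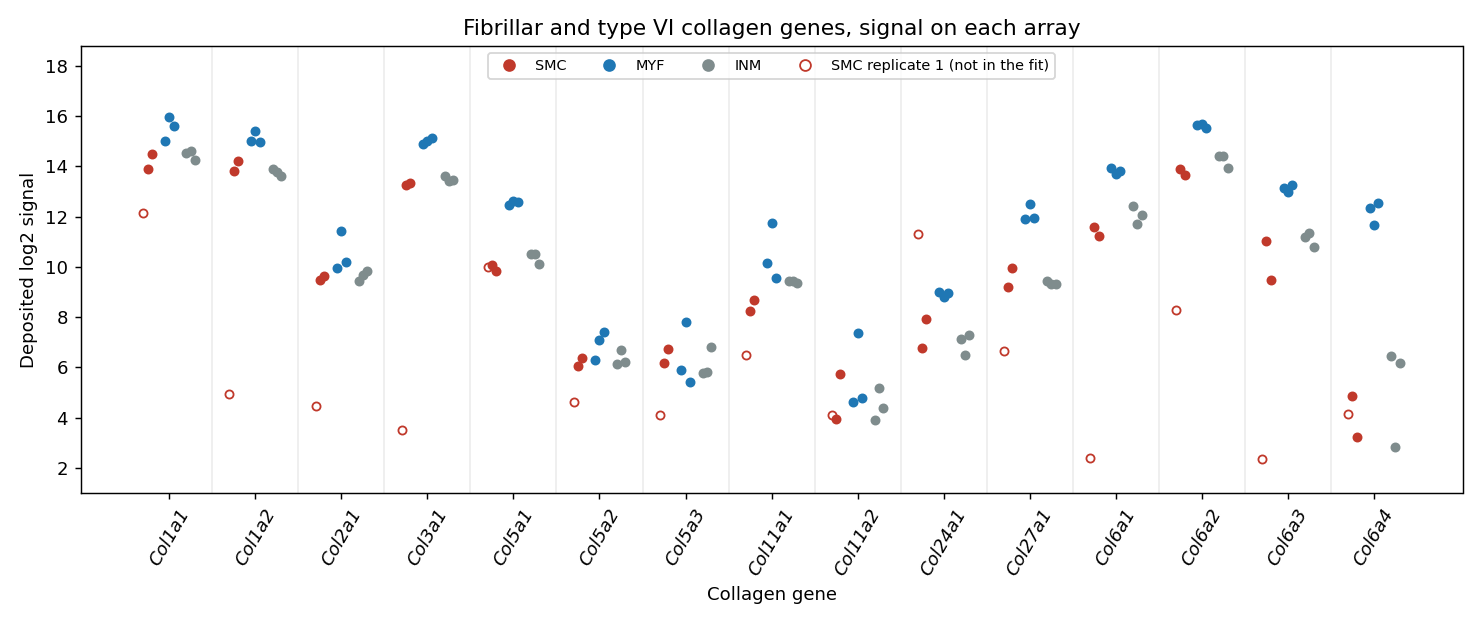
Deposited log2 signal on each array (vertical axis) for the 11 fibrillar and 4 type VI collagen genes, with points coloured by group and SMC replicate 1 drawn hollow. The 3 MYF points of Col6a4 lie between 11.68 and 12.53 while the INM points lie between 2.82 and 6.45, and for Col3a1, Col5a1 and Col27a1 the MYF points lie above all others.

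Promoters of 4 of these loci are shown because 2 chain genes share one of them and the others belong to genes called higher in MYF. RefSeq promoters on GRCm38.p6, from 250 bases before to 50 after the first base, were matched for 31 of the 38 members (34 windows). Capitals in the Col4a2 sequence, on the plus strand at chr8:11312555-11312854, mark the 78 bases that it shares with the window of Col4a1, which is read from the other strand. Capitals in the other 3 mark matches to the TATA box, whose letters are TATAAA. They also mark matches to the box named for its letters CCAAT, and to the GC box, whose letters are GGGCGG. Both strands were searched and matches could overlap. Col1a2 lies on the plus strand at chr6:4505368-4505667, Col3a1 on the plus strand at chr1:45311288-45311587 and Col6a4 on the minus strand at chr9:106096642-106096941.
Col4a2: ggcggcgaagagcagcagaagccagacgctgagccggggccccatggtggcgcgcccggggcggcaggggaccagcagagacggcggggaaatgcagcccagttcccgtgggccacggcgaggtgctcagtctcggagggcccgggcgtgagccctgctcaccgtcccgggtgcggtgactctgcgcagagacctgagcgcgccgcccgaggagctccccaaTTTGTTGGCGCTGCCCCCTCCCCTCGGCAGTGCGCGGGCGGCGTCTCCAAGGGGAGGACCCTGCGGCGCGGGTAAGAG
Col1a2: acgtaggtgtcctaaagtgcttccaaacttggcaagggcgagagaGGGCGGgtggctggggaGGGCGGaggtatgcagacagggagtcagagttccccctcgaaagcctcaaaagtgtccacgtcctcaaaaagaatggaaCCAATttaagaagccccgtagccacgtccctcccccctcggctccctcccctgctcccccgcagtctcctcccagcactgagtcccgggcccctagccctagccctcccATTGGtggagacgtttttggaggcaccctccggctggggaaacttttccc
Col3a1: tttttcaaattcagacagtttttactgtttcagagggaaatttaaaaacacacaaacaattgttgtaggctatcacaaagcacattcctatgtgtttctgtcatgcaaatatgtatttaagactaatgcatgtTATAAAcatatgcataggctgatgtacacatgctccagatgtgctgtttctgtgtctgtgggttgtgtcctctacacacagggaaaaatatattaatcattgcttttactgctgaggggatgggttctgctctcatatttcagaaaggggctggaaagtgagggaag
Col6a4: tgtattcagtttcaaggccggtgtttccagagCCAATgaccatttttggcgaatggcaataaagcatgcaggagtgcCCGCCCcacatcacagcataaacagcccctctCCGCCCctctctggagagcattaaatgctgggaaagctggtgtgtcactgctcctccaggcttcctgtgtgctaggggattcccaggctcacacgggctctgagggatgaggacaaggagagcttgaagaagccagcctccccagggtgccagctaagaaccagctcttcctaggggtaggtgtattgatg

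TATAAA stood in 5 of 34 member windows (14.7%) and in 13.6% of 32851 windows in the table, and CCAAT in 13 (38.2%) and 37.4%. GGGCGG stood in 21 windows of members (61.8%) against 35.7% of all, beside a median GC content of 59.8% against 52.7%. Among the promoters printed, Col3a1 holds TATAAA at -117 and no CCAAT or GGGCGG, whereas Col1a2 and Col6a4 each hold CCAAT and 2 copies of GGGCGG on one strand or the other. The 3 genes were all called higher in MYF than in INM. A match describes the letters only.

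Type IV collagen did not move as one family. In the mouse its genes lie in head-to-head pairs, and Col4a1 was called higher and Col4a3 and Col4a4 lower in MYF than in INM. Col4a1 and Col4a2, whose chains form the widespread network of nearly all basement membranes, start 21 bases apart on opposite strands within the first sequence above. Col4a1 was at 13.60, 13.42 and 13.75 in MYF, 12.60, 12.61 and 12.44 in INM and 12.09 and 11.46 in SMC, with 4.72 on SMC replicate 1. Col4a2 was at 12.70, 12.52 and 12.87 in MYF, 12.07, 11.85 and 11.76 in INM and 11.49 and 11.00 in SMC, with 6.10 on that replicate. Both genes were ordered MYF, INM, SMC with no overlap between neighbours, although SMC minus INM did not pass. SMC minus MYF was -1.82 ± 0.31 for Col4a1 (adjusted p = 0.0125) and -1.45 ± 0.30 for Col4a2 (adjusted p = 0.0268). MYF minus INM was 1.04 ± 0.27 for Col4a1 (adjusted p = 0.0488) and 0.80 ± 0.27 for Col4a2, which did not pass (adjusted p = 0.103).

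Col4a3 and Col4a4 encode chains that, with that of Col4a5, form the network of the glomerular and alveolar basement membranes. Col4a3 was at 2.12, 3.47 and 4.33 in MYF, 6.99, 6.02 and 6.45 in INM and 6.00 and 4.34 in SMC, with 5.49 on SMC replicate 1. MYF was the lowest group, all of its arrays were dim, and MYF replicate 3 lay just below the lower SMC array (4.33 against 4.34). Col4a4 was at 7.10, 7.47 and 7.32 in MYF, 8.16, 8.96 and 8.63 in INM and 8.08 and 7.26 in SMC, with 12.95 on SMC replicate 1. In MYF minus INM the difference was -3.18 ± 0.64 for Col4a3 (adjusted p = 0.0196) and -1.29 ± 0.34 for Col4a4 (adjusted p = 0.0484). A second Col4a3 probe, dim on all arrays, gave -1.15 ± 0.99 and did not pass (adjusted p = 0.555, over all probes). A second, dimmer Col4a4 probe gave -4.56 ± 0.87 (adjusted p = 0.0177). SMC minus MYF was 1.86 ± 0.72 and 0.37 ± 0.38, and neither gene passed. The epithelial marker sum was lower in MYF than in INM beside these falls, and its part in them was not tested. Col4a5 and Col4a6 differed by 0.66 ± 0.57 and 1.07 ± 0.55 between MYF and INM and did not pass. Over the alternative settings the calls against INM were kept in 13 of 18 for Col4a3, 10 of 19 for Col4a4 and 9 of 19 for Col4a1, and those of SMC against MYF in 15 of 19 for Col4a1 and 8 of 19 for Col4a2. No call of a type IV gene was kept with all 9 arrays.

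**Figure D4:**
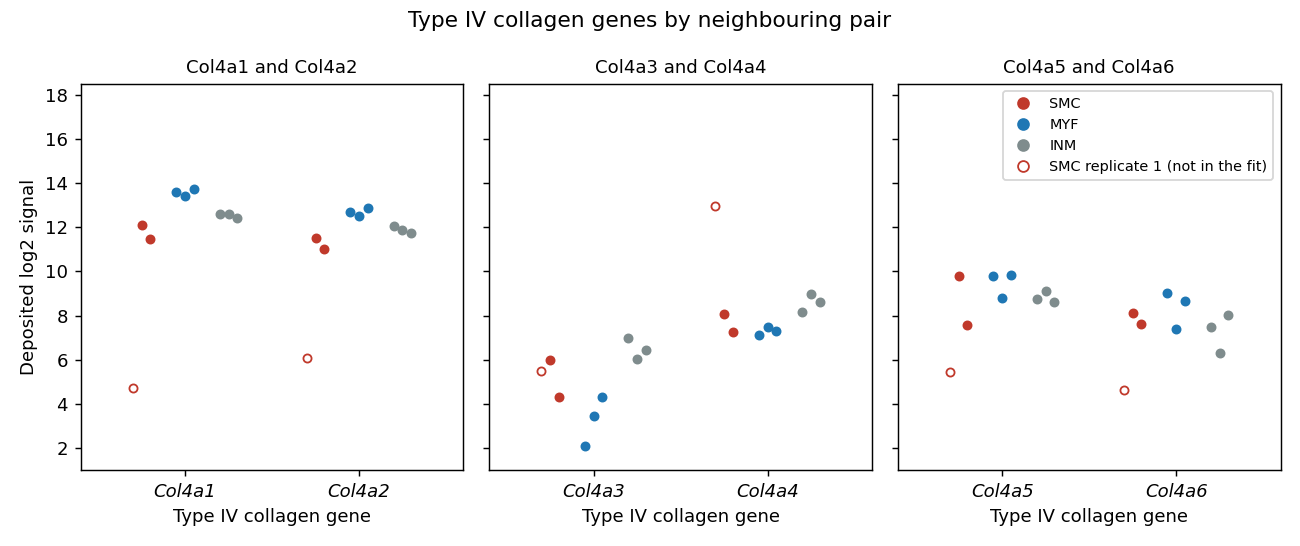
Deposited log2 signal on each array (vertical axis) for the 6 type IV collagen genes in their 3 chromosomal pairs, coloured by group with SMC replicate 1 drawn hollow. The MYF points are highest for Col4a1 and Col4a2 and lowest for Col4a3 (2.12 to 4.33).

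The 17 other members gave 1 call higher in MYF than in INM (Col16a1), 2 lower (Col9a3 and Col18a1), and 2 lower in SMC than in MYF (Col16a1 and Col13a1). Over all genes these directions were called for 4.35%, 6.36% and 3.54%. Col16a1 encodes a chain of the fibril-associated group and was at 10.89, 11.37 and 11.07 in MYF, 9.60, 9.82 and 9.38 in INM and 8.87 and 8.55 in SMC, with 9.78 on SMC replicate 1. MYF was highest and SMC lowest among the 8 arrays. The difference was 1.51 ± 0.27 in MYF minus INM (adjusted p = 0.013) and -2.40 ± 0.31 in SMC minus MYF (adjusted p = 0.00482). Its 3 probes did not move alike, running from -0.58 to 1.51 in MYF minus INM and from -2.40 to 0.57 in SMC minus MYF. With the mean of the probes the differences were 0.34 and -0.50 and passed in neither comparison. The calls were kept in 14 of 19 settings in MYF minus INM and in 17 of 19 in SMC minus MYF.

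Col13a1 encodes a transmembrane collagen of cell contacts. It was at 9.44, 10.47 and 9.80 in MYF, 10.83, 10.30 and 10.36 in INM and 7.80 and 6.30 in SMC, with 3.37 on SMC replicate 1. SMC was the low group on every array, and MYF and INM overlapped. SMC minus MYF was -2.85 ± 0.51 (7.22-fold, adjusted p = 0.0155), and SMC minus INM was -3.44 ± 0.51 (10.9-fold), which missed the threshold (adjusted p = 0.0504). Its 3 probes gave -2.85 to -0.42 in SMC minus MYF, and their mean gave -1.35 and did not pass. Col23a1, another transmembrane chain, had SMC minus INM of -1.89 ± 0.45 (adjusted p = 0.155).

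Col18a1 encodes the basement membrane collagen that carries endostatin, and was at 6.53, 7.66 and 6.54 in MYF, 8.73, 8.75 and 8.12 in INM and 7.39 and 8.27 in SMC, with 6.69 on SMC replicate 1. It was lower in MYF than in INM by 3.09-fold (log2 difference -1.63 ± 0.42, adjusted p = 0.0462). Col9a3 encodes a chain of collagen IX, the companion of cartilage fibrils, and was at 3.77, 3.50 and 4.48 in MYF, 5.53, 4.92 and 6.15 in INM and 4.24 and 3.88 in SMC, with 2.77 on SMC replicate 1. These are dim signals, and MYF minus INM was -1.62 ± 0.40 (adjusted p = 0.0413), while a second probe gave -0.02. Col9a2, which pairs with it in collagen IX, went the other way at 10.40, 10.07 and 10.53 in MYF and 7.00, 6.96 and 8.12 in INM, and its difference of 2.97 ± 0.84 did not pass (adjusted p = 0.062). Across the alternative settings the calls of Col13a1, Col18a1 and Col9a3 were kept in 15 of 19, 10 of 19 and 8 of 18, and none was kept with all 9 arrays. The short-chain collagens Col8a1, Col8a2 and Col10a1, the anchoring fibril chain Col7a1, Col15a1, Col17a1, Col19a1, Col25a1, Col12a1, Col14a1 and Col9a1 passed in no comparison. Outside the 38, Col20a1, Col22a1, Col26a1 and Col28a1 did not pass either, with MYF minus INM of 0.10, 0.56, 0.80 and -2.02.

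MYF replicate 2 was the highest of the 3 MYF arrays for 23 of 38 members (60.5%), where it was for 31.6% of all genes. For 11 members it exceeded both others by more than 1 on the log2 scale, a step that was not counted over all genes. Col7a1, the chain of the fibrils that anchor epithelium, was at 11.36 there and at 8.36 and 8.30 on the others. Col12a1, a fibril-associated chain of dense connective tissue, was at 12.22 there and at 9.22 and 10.24. Col11a2 was at 7.36 against 4.62 and 4.79, and Col11a1 at 11.76 against 10.18 and 9.58. None of the 9 genes called in both MYF comparisons lay among these 11, and Col18a1, called lower in MYF than in INM, did. A gene with 1 MYF array far from the others has a wide spread and passes less easily, so this overlap is no check of the calls. On the same array the summed signal of 11 cartilage markers was 11.64, against 10.18 and 9.81 on the other MYF arrays, 12.56 to 13.03 in INM and 10.93 and 11.80 in SMC. Of these markers 4 lay below the median signal of all genes on all 8 arrays, so the brighter ones carry the sum. Sox9, a regulator of cartilage and epithelium, was at 9.73 against 6.98 and 7.34 in MYF and 8.56 to 8.87 in INM, and the part of cartilage RNA in these signals was not tested.

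**Figure D5:**
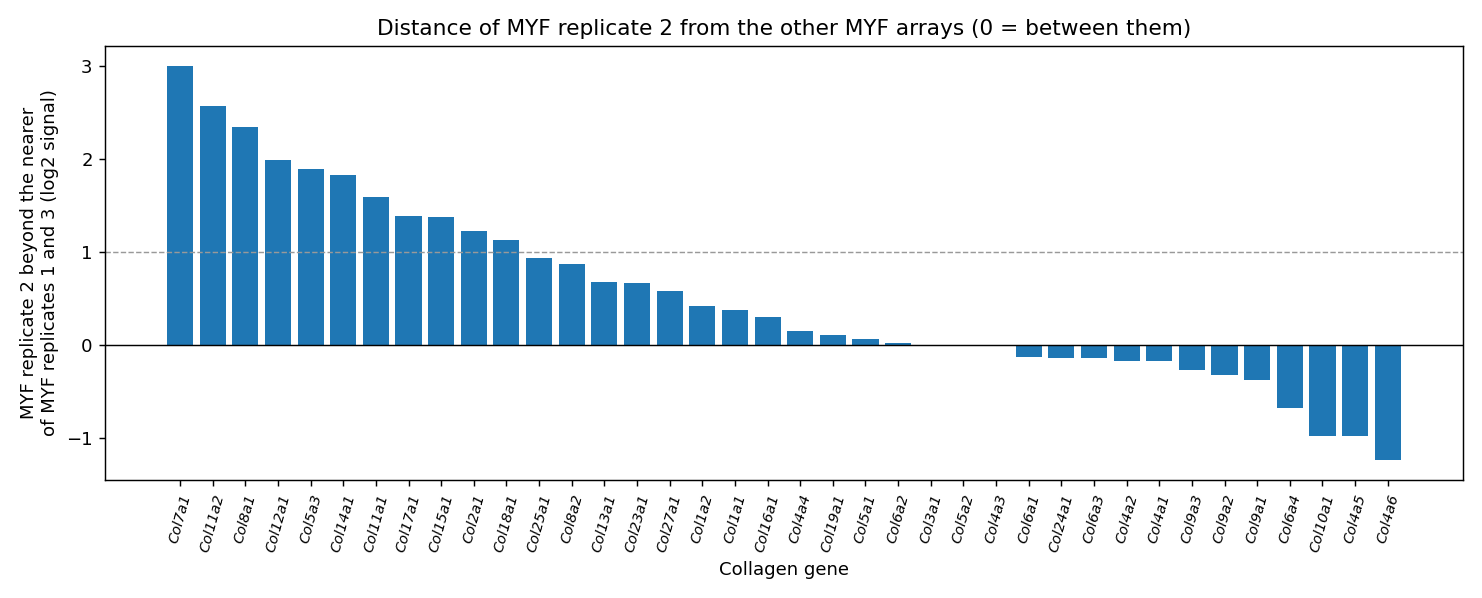
Distance of MYF replicate 2 from the nearer of the other 2 MYF arrays in log2 signal (vertical axis), 1 bar per collagen gene in falling order, with 0 where it lay between them. Of the 38 genes 23 have a positive bar, and 11 pass the dashed line at 1, a step that was not counted over all genes.

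Genes that modify, cut and carry procollagen were counted from a list of 30, of which 29 were measured. In MYF against INM 6 of 29 were higher and 1 lower, and in SMC against MYF 7 were lower and 1 higher. The shares were 20.7% and 3.45% against 4.35% and 6.36% of all genes, and 24.1% and 3.45% against 3.54% and 4.66%. Adamts14, which removes the amino-terminal propeptide of procollagen, was at 12.94, 12.21 and 13.07 in MYF, 7.72, 6.54 and 6.66 in INM and 7.98 and 8.03 in SMC. The MYF arrays were far above the others, with MYF minus INM at 5.77 ± 0.40 (adjusted p = 0.000351) and SMC minus MYF at -4.73 ± 0.44 (adjusted p = 0.00208). Higher in MYF than in INM included Colgalt2, a collagen galactosyltransferase (2.73 ± 0.65), P4ha3, a catalytic subunit of prolyl 4-hydroxylase (2.01 ± 0.45), and P3h3, a prolyl 3-hydroxylase family member (1.41 ± 0.32). Against MYF, SMC was lower for Colgalt2 (-3.13 ± 0.73), P4ha3 (-2.40 ± 0.51) and Adamts2, a second amino-propeptidase (-1.95 ± 0.47). Tll1, a tolloid-like protease, ran the other way, at 3.77, 3.30 and 4.69 in MYF, 7.68, 7.19 and 6.09 in INM and 6.33 and 7.78 in SMC. MYF minus INM was -3.07 ± 0.58 (adjusted p = 0.0147) and SMC minus MYF 3.14 ± 0.65 (adjusted p = 0.0261). In SMC minus INM 0 of 29 passed by limma, and the largest differences were those of Pcolce2 and P4ha2 at -1.96 and -1.63. An unadjusted p under 0.05 was reached by 4 of 29, and by 3071 of the 24260 genes tested.

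Of 10 collagen receptors, Ddr2, a receptor tyrosine kinase for fibrillar collagen, was at 11.79, 12.20 and 12.31 in MYF, 9.70, 8.63 and 9.67 in INM and 10.18 and 8.92 in SMC. It was higher in MYF, with MYF minus INM at 2.76 ± 0.44 (adjusted p = 0.00722) and SMC minus MYF at -2.55 ± 0.49 (adjusted p = 0.0209). Ddr1, its relative typical of epithelium, was lower in MYF than in INM at -1.30 ± 0.25 (adjusted p = 0.0153). Mrc2, an endocytic receptor that takes up collagen, was lower in SMC than in MYF at -1.86 ± 0.38 (adjusted p = 0.0261). In SMC minus INM 0 of 10 passed by limma, and Mrc2 and Itga2 had the largest differences, -1.90 and -0.95. An unadjusted p under 0.05 was reached by 1 of 10, and by 3071 of the 24260 genes tested. With all 9 arrays 0 of the 10 receptors passed in either MYF comparison, and 1 of the 29 biosynthesis genes passed in each.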

How the data were processed

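RNA of 9 sorted samples was amplified, labelled with Cy3 and hybridised to one-colour Agilent arrays, per the labels. The deposited values are log2 signals of array features. The submitters' processing notes name limma without a version. Over the 9 columns the lowest value is 1.65, and the column means and standard deviations average 5.89 and 3.00. Column medians run only from 5.1735 to 5.1737, so the authors' values were read as normalized to a common distribution. Signals end at 16, which compresses bright genes. Of 62976 features 733 have an empty cell, left empty, and 43941 carry 1 symbol from the platform annotation, of which 1851 were updated with RefSeq records. Each of 24291 genes was taken from its brightest probe, by the mean of all 9 arrays.

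The test was limma 3.58.1 (lmFit, then eBayes, in R 4.3.3 with version 1.17.8 of the data.table package) with 1 mean per group, two-sided tests and Benjamini-Hochberg adjustment over all genes (24258 to 24261 tested), at 0.05. The fit used 8 arrays without SMC replicate 1, and a fit of all 9 is given beside it. The number of arrays limits the precision, and where animals were pooled is not given in the sources used here. The code was tested on simulated data. Every member past the test in a comparison is given on every array. Of the pathway lists, up to 4 called genes a direction are named, or the 2 with the largest difference where none passed. Alternatives were all 9 arrays, a signal filter, the replicate number as a block, centring, another quantile normalization, other probe summaries, probes as the unit, a variance trend, array weights, the compared groups alone and each array left out. The members and lists were chosen with earlier results of these data known. Replicate numbers were not used as pairs. Deviations from the group mean correlated at -0.05 to 0.02 between same-numbered arrays and at -0.03 to 0.05 between others. With 2 SMC arrays in the fit their deviations are mirror images, so the SMC correlations of these sets are not independent. Promoters are RefSeq's.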

Additional observations from a re-analysis of the deposited data

How the results depend on the processing

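SMC replicate 1 is the array on which most depends. With all 9 arrays, calls fell from 15 to 2 of 38 collagen genes in MYF minus INM and from 11 to 2 in SMC minus MYF, from 7 to 1 and from 8 to 1 of the biosynthesis genes, and from 2 to 0 of the receptors in both. In MYF minus INM that array enters only the spread shared by the 3 groups, and no difference changed. For Col3a1 the difference was 1.52 in both fits, with an SE of 0.24 on 8 arrays and 2.24 on 9. The replicate block left 9 collagen genes, 3 biosynthesis genes and 1 receptor in MYF minus INM, and 3 biosynthesis genes and 0 receptors in SMC minus MYF. The numbers share no stated animal, litter or day, so this block is no evidence of a weaker effect. Fits of the compared groups alone gave 5 collagen genes, 1 biosynthesis gene and 0 receptors in SMC minus MYF. Array weights gave 1 biosynthesis gene and 0 receptors there, the mean of probes and the probe with the largest interquartile range 5 biosynthesis genes each, and the variance trend 4 receptors. In SMC minus INM, Col13a1 was the 1 collagen gene called with the low signals left out, with the variance trend, and with the probe brightest over 8 arrays, an alternative chosen after seeing the data.

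With 1 array left out in turn, 6 to 16 collagen genes were called in MYF minus INM (6 without MYF replicate 1, MYF replicate 3, INM replicate 1 or INM replicate 3, and 9 without INM replicate 2), 8 to 14 in SMC minus MYF and 0 to 2 in SMC minus INM. Biosynthesis genes gave 1 to 7, 1 to 7 and 0 to 1, and receptors 1 to 2, 0 to 2 and 0 to 0, in the same order. These ranges include the fits without SMC replicate 2 or 3, in which the SMC group is 1 array with no spread of its own. Leaving out SMC replicate 3 turned 2 uncalled differences in SMC minus MYF. Over the arrays left out Col4a5 lay between -1.93 and 0.29 and Col10a1 between -1.11 and 3.21. Of 114 gene and comparison pairs 26 passed in the fit of 8 arrays and 39 under some setting, and 0 of the 26 changed direction in the 19 settings. Of the 75 that never passed, 42 changed sign under some setting. With each probe as the unit, 21 of 97 member probes were higher and 2 lower in MYF than in INM, and 19 were lower in SMC than in MYF. Of all probes, 3595 of 43898 and 2939 of 43904 were called in these comparisons in either direction. Col1a1 holds 22 of the 97 member probes, and 4 of the 21 and 3 of the 19 were its own. Probes of 1 gene are not independent of one another. All-gene counts in the fit of 8 arrays were 2598 in MYF minus INM, 1991 in SMC minus MYF and 60 in SMC minus INM. Those counts became 267, 163 and 0 with all 9 arrays, 1578, 769 and 0 with the block, and 4513, 773 and 3 with array weights. The groups alone gave 3634 in MYF minus INM, 626 in SMC minus MYF and 0 in SMC minus INM, and the variance trend 117 in the last. Leaving out 1 MYF or INM array gave 1139 to 2064, 817 to 1593 and 5 to 21. The fits without SMC replicate 2 or 3 hold 1 SMC array, and their all-gene counts are not given here. In MYF minus INM they repeat the fit of the groups alone, since 1 SMC array adds nothing to the spread. Centring each array on its median gave 2598, 1991 and 60 again. Other than the changed spread in MYF minus INM with all 9 arrays and the repeated fits named above, the cause of these changes was not tested.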
